A study of Mus musculus with 2 samples.

Results

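*Pparg* and 8 genes that encode its sister receptors, its dimerisation partners and coregulators were read out in the ureter of mouse embryos at E16.5, where E stands for embryonic day. The 9 genes are the PPAR receptors *Pparg*, *Ppara* and *Ppard*, the RXR receptors *Rxra*, *Rxrb* and *Rxrg*, the corepressor *Ncor1* and the coactivators *Ppargc1a* and *Ppargc1b*. They were taken by gene symbol, without use of any measured value, and were covered by 17 of the 39429 probes on the array, with 68 spots per array. Naming the probes by accession instead of by symbol added 0 and removed 0 probes. In each of the 4 channels, 100% of the kept spots of these 17 probes were well above background, and each of the 9 genes was tested.

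The data are 2 dual-colour oligonucleotide arrays. Array 1 compared 1 pool of female *Pparg-cKO* ureters with 1 pool of female control ureters, and array 2 compared male pools, with the dyes exchanged. *Pparg-cKO* embryos carried *Pax2-cre/+; Pparg(fl/fl)*, and controls are labelled *Pparg(fl/?)*, meaning that the second allele is not given, and carried no cre by the study's methods. Both genotypes were on the NMRI strain, which is outbred. *Pax2-cre* acts in the nephric duct and in the epithelia of the ureter and collecting ducts. Whole ureters were used, and in such bulk RNA fewer cells of a type and less RNA per cell cannot be told apart. Channel 2 is labelled E14.5, whereas titles and protocols give E16.5. Because the dyes were exchanged between the female and the male array, sex and dye cannot be told apart. The values below come from 1 pool of each genotype per array, and their spread includes technical error.

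PPARs are nuclear receptors that bind fatty acids and their derivatives. Each pairs with an RXR, and the pair sits on DNA at PPAR response elements. Without ligand, corepressor complexes built on NCOR1 keep target genes low, and ligand binding exchanges them for coactivators such as PGC-1α, the product of *Ppargc1a*. PPARG is best known as the master regulator of fat cells, and it is also expressed in the urothelium, the stratified epithelium that lines the ureter and bladder.

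The sequence of the *Pparg* probe shows which part of the transcript it reads. The *loxP* sites flank exons 2 and 3, and the study designed primers for an exon 2/3 fragment and for a fragment at the 3′ end of the cDNA. The lines below give 30 bases of the *Pparg* probe, with the 19 bases that pair with the reverse primer of the 3′ fragment in capitals, and then the exon 2/3 primers, 5′ to 3′.
Pparg probe, bases 11 to 40 of 60: cccaccCGCTGACAACGTGTTCCTTctatt
Pparg exon 2/3 forward primer: cttcggaatcagctctgtgg
Pparg exon 2/3 reverse primer: acagactcggcactcaatgg
The primer site was found in 1 probe of the array, that of *Pparg*, at its bases 17 to 35. The 2 exon 2/3 primers were found in 0 probes. The probe lies at chromosome 6, 115440213 to 115440272 (mm9, plus strand), and starts at base 1562 of its transcript in the file's annotation. It reads the 3′ end, outside the deleted part, and is therefore no check of the deletion or of the labels. In the study's in situ hybridisation, the exon 2/3 probe gave no signal in the mutant ureteric epithelium. A 3′ probe still found a *Pparg* mRNA there. The study describes this mRNA as increased over control at a fetal stage later than E16.5, and reads that as compensatory upregulation.

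*Pparg* gave a strong signal in both RNAs of both arrays. RNA A stands here for the RNA that carried the red dye (AlexaFluor647) on array 1 and the green dye (AlexaFluor555) on array 2, and RNA B for its counterpart. The *Pparg* signal was 11295 in RNA A against 7430 in RNA B on array 1. On array 2 it was 12888 against 7872. RNA A was brighter on both arrays, and the ranges of the 4 spots did not overlap (10614 to 11656 against 6975 to 7675 on array 1, 12082 to 13245 against 7511 to 8252 on array 2). The log2 ratio of RNA A over RNA B was 0.60 on array 1 and 0.71 on array 2, which are 1.52-fold and 1.64-fold. Its mean was 0.66 ± 0.076 (SD, n = 2 arrays). The direction between genotypes is not settled. By the dye labels RNA A is control on both arrays, so *Pparg* would be lower in *Pparg-cKO*. The study's text gives the opposite direction for the genes it describes, and under it RNA A is *Pparg-cKO* and *Pparg* would be higher there. The signed fold changes that the authors deposited follow RNA A over RNA B (Pearson r across 18540 probes 0.997 on either array). The samples are titled as *Pparg-cKO* against control, and if that is the direction of the fold changes, RNA A is again *Pparg-cKO*. In situ hybridisation on sections, a measure of the study that is separate from the arrays, describes *Upk1a*, *Upk3b* and *Krt20* as reduced in the mutant. These 3 genes were brighter in RNA B here, as they would be if RNA A is *Pparg-cKO*. The dye labels alone give the other reading, and no genotype was assigned from the values. All ratios below keep RNA A over RNA B.

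**Figure D1:**
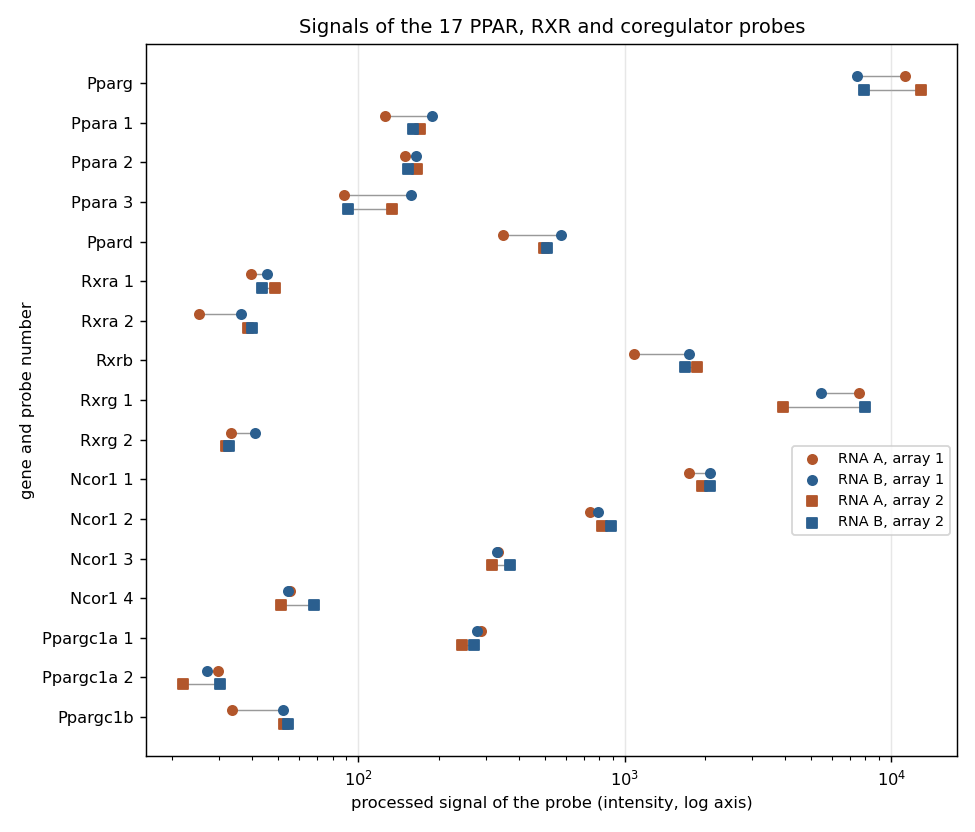
Processed signal (intensity, log axis) of each of the 17 probes, numbered within a gene from the brightest, with orange for RNA A, blue for RNA B, circles for array 1 (female pools) and squares for array 2 (male pools), and a grey line joining both RNAs of an array. The *Pparg* points of RNA A lie to the right of those of RNA B on both arrays, and those of *Rxrg* probe 1 change sides between the arrays; signals of different probes cannot be compared with each other.

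*Pparg* was the only one of the 9 genes past the study's filter, read as a ratio of 1.5-fold or more that agrees in direction between the arrays, where the brighter RNA reaches a signal of 100 each time. The filter passed 0.157% of 29982 genes in the direction of RNA A and 0.23% in the direction of RNA B, where 0 of the 9 genes passed. In the fit of limma across 21429 genes well above background, 0 of the 9 genes were called at an adjusted p under 0.05, and 1, *Pparg*, had an unadjusted p under 0.05. limma called 0.126% of the genes tested in the direction of RNA A and 0.187% in that of RNA B. The limma adjusted p of *Pparg* was 0.615, with a 95% interval of the log2 ratio from 0.21 to 1.11. With 2 arrays, the smallest p of an exact two-sided sign test for 1 gene is 0.5. Of all genes tested, 0.835% had a mean log2 ratio at least as high as that of *Pparg*.

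Among urothelial markers, other than *Pparg*, the *Upk* genes and *Krt20*, which mark mainly superficial cells, were brighter in RNA B. Of 8 urothelial markers, 8 were tested and 6 were brighter in RNA B each time, among them *Upk1a*, *Upk3a*, *Upk3b* and *Krt20* past the filter. The summed signal of the 8 was 52844 and 51635 in RNA A against 84708 and 88402 in RNA B (array 1 and array 2). Bright probes carry such a sum: *Upk3a* alone gave 32480 and 30472 in RNA A and 50577 and 51988 in RNA B. *Krt5*, a keratin of basal cells, was the one brighter in RNA A on both arrays, with log2 ratios of 0.26 and 0.67. *Trp63*, a marker of basal and intermediate cells, had ratios of opposite sign, -0.31 and 0.10. limma called *Upk1a* and *Upk3b*, which encode plaque proteins of superficial cells, with adjusted p of 0.0451 and 0.0201. These calls depend on the processing, with limma adjusted p from 0.0175 to 1 for *Upk1a* and from 0.011 to 1 for *Upk3b* over the alternatives. Both were lost with normexp and loess, with the authors' table and with no filter on dim probes, and that of *Upk1a* also with loess on the processed signals (0.0673), while RNA B stayed the brighter. Of 6 pan-epithelial markers, 0 passed the filter and 4 had ratios of opposite sign on the arrays, as had 61% of all genes tested. The fat cell markers listed were near background: 1 of 6, *Cidea*, was tested, and the summed signal of all 6 was between 30.1 and 40.7 in the 4 channels. *Adipoq*, *Plin1*, *Cidec*, *Lep* and *Ucp1* were below the limit for testing. *Fabp4*, a fatty acid carrier counted in another list below, was bright, with 19055 and 19614 in RNA A and 14152 and 17430 in RNA B. The study shows *Fabp4* in fat tissue around the ureter at stages later than E16.5. At E16.5 it describes the ureteric epithelium as lacking *Fabp4* expression. Macrophage markers, of another cell type that expresses *Pparg*, were the brighter in RNA A each time for 5 of 5 genes. Their means lay between 0.14 and 0.38, and 0 of 5 passed the filter. Over all genes tested, the 5th and 95th percentiles of the mean log2 ratio were -0.33 and 0.30. Their summed signal was 4618 and 5090 in RNA A against 4027 and 4416 in RNA B. For 5 of 5 smooth muscle markers RNA B was the brighter one each time, and their summed signals were 77109 and 73370 in RNA A and 98172 and 128629 in RNA B. Most of this came from *Acta2*, with 49285 and 39606 in RNA A and 58116 and 72555 in RNA B. In limma, 6 of 8 urothelial, 5 of 5 smooth muscle and 0 of 5 macrophage markers had an unadjusted p under 0.05. Of all genes tested, 3.78% did. Of 6 nephron markers 3 were tested, and limma called *Slc34a1*, a phosphate transporter of the proximal tubule, at an adjusted p of 0.0122 from dim signals of 6.203 and 4.20 in RNA A and 30.8 and 37.2 in RNA B. The limma adjusted p of *Slc34a1* ran from 0.00619 to 1 over the alternatives, and its mean log2 ratio of -2.73 became -1.07 with normexp and loess. The part of these cells in the *Pparg* ratio was not tested.

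The genes whose pair of ratios lay nearest to that of *Pparg*, out of 14584 genes with a signal of at least 100 in all 4 channels, were *Emb*, *Gipc2*, *Akr1e1*, *Cdh16* and *Efemp1*. Likeness was the Euclidean distance between the pairs of log2 ratios over the 2 arrays, and it ranged from 0.0198 for *Emb* to 0.0893 for *Efemp1*. The ratios of *Emb* were 0.59 and 0.72, and those of *Cdh16* 0.58 and 0.65.

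The sister receptors did not pass the filter. *Ppard*, the most widely expressed PPAR, which drives fatty acid oxidation in many tissues, was read by 1 probe (chromosome 17, 28438298 to 28438357). Its signal was 348 in RNA A against 576 in RNA B on array 1, and 498 against 510 on array 2. RNA B was brighter by 1.65-fold on array 1, and both RNAs lay within the spread of the spots on array 2 (469 to 521 against 499 to 517). The mean log2 ratio was -0.38 ± 0.49 (SD, n = 2 arrays), with a limma adjusted p of 1 and a 95% interval from -0.90 to 0.14.

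*Ppara*, the PPAR of liver and other tissues that burn fatty acids, was read by 3 probes on chromosome 15. The brightest (85637193 to 85637252) gave 126 in RNA A against 189 in RNA B on array 1, and 170 against 161 on array 2. RNA B was brighter on array 1, and the spots of both RNAs overlapped on array 2. Its log2 ratios were -0.58 and 0.08, with a mean of -0.25 ± 0.47 (SD, n = 2 arrays). The other two probes also changed sign between the arrays. Probe 2 (85632534 to 85632593) had ratios of -0.13 and 0.11. Probe 3 (85632110 to 85632169) had ratios of -0.83 and 0.55, from signals of 88.5 in RNA A against 157 in RNA B on array 1 and 133 against 91.0 on array 2. The 3 probes thus gave means of -0.25, -0.01 and -0.14. The limma adjusted p of *Ppara* was 1, and the 95% interval ran from -0.76 to 0.27.

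Among the RXRs, the obligate partners of all PPARs, *Rxrb* was the lower in RNA A on array 1 only. Its probe (chromosome 17, 34175279 to 34175338) gave 1082 in RNA A against 1737 in RNA B on array 1, and 1874 against 1686 on array 2. The RNA A channel of array 1 was the low value of the 4, and on array 2 the order was the other way round. The log2 ratios were -0.68 and 0.15, with a mean of -0.26 ± 0.59 (SD, n = 2 arrays) and a 95% interval from -0.82 to 0.29. On array 1 alone, 2 of the 9 genes, *Ppard* and *Rxrb*, passed 1.5-fold in the direction of RNA B with a signal of at least 100, as did 2.12% of all genes. 

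*Rxra*, the main RXR of epithelia such as the epidermis, had dim probes, both on chromosome 2. Probe 1 (27618781 to 27618839) gave 39.4 in RNA A against 45.2 in RNA B on array 1, and 48.6 against 43.3 on array 2. The spots of both RNAs overlapped on either array. The mean log2 ratio was -0.02 ± 0.26 (SD, n = 2 arrays), with a 95% interval from -0.49 to 0.45. Probe 2 (27615316 to 27615375) gave 25.2 against 36.3 on array 1 and 38.4 against 39.9 on array 2, with ratios of -0.53 and -0.06. All 4 channels were well above background, but the log2 ratio of single spots varied by an SD of 0.269 on array 1 for probe 1, against 0.00427 for *Pparg*.

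*Rxrg*, an RXR known from skeletal muscle and nervous tissue, is shown with its probe sequences because its 2 probes on 1 transcript gave different readings. They lie on chromosome 1 (mm9, plus strand), at 169569496 to 169569555 and 169569624 to 169569683, with 68 bases between them. The lines give 30 bases of each, 5′ to 3′, with the letters AATAAA, the usual signal for the end of a transcript, in capitals.
Rxrg probe 1, bases 26 to 55 of 60: tgtgatgcttgtAATAAAgacaacctttct
Rxrg probe 2, bases 16 to 45 of 60: ttcttgggaagagtggccaagcctctgtac
AATAAA in the sense of the probe was found in 12.6% of all 39429 probes and in 1 of the 17 probes of the 9 genes, and on either strand in 16.2% and in 2. A match is a description of the letters only. Both probes held 45% G and C. Neither shared a run of 20 bases with a probe of another gene, and the same was true of the other 15 probes.

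*Rxrg* probe 1 gave 7558 in RNA A against 5448 in RNA B on array 1, and 3921 against 7973 on array 2. RNA A was brighter on array 1 and RNA B on array 2, so the red dye (AlexaFluor647), which also means the female RNA A and the male RNA B, was brighter both times, with no overlap of spots. The log2 ratios were 0.47 and -1.02, with a mean of -0.28 ± 1.06 (SD, n = 2 arrays), a limma adjusted p of 1 and a 95% interval from -1.01 to 0.46. Of all genes tested, 1.06% differed at least as much between the arrays. On array 2 alone, *Rxrg* was 1 of the 9 genes past 1.5-fold in the direction of RNA B, which 1.63% of all genes passed. Probe 2 was far dimmer, with 33.2 and 40.9 on array 1 and 31.7 and 32.7 on array 2, where the spots of both RNAs overlapped. Its ratios of -0.30 and -0.04 did not share the pattern of probe 1, but the dim signals limit that comparison. Ratios of opposite sign on the arrays were seen in 61% of all genes tested. Of 5 hepatocyte markers, 3 had them, as probe 1 had, and *Ttr* and *Afp* were brighter in RNA B on both. Their summed signal over 5 of 5 genes was 9940 in RNA A against 8629 in RNA B on array 1, and 3579 against 8496 on array 2, and the ratios of *Alb* were 0.36 and -1.31, those of *Ttr* -0.34 and -1.69, and those of *Afp* -0.10 and -1.41. Skeletal muscle markers summed to 2484 and 3416 on array 1 and to 1559 and 1605 on array 2. The part of either tissue, or of the dye, in the *Rxrg* values was not tested.

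**Figure D2:**
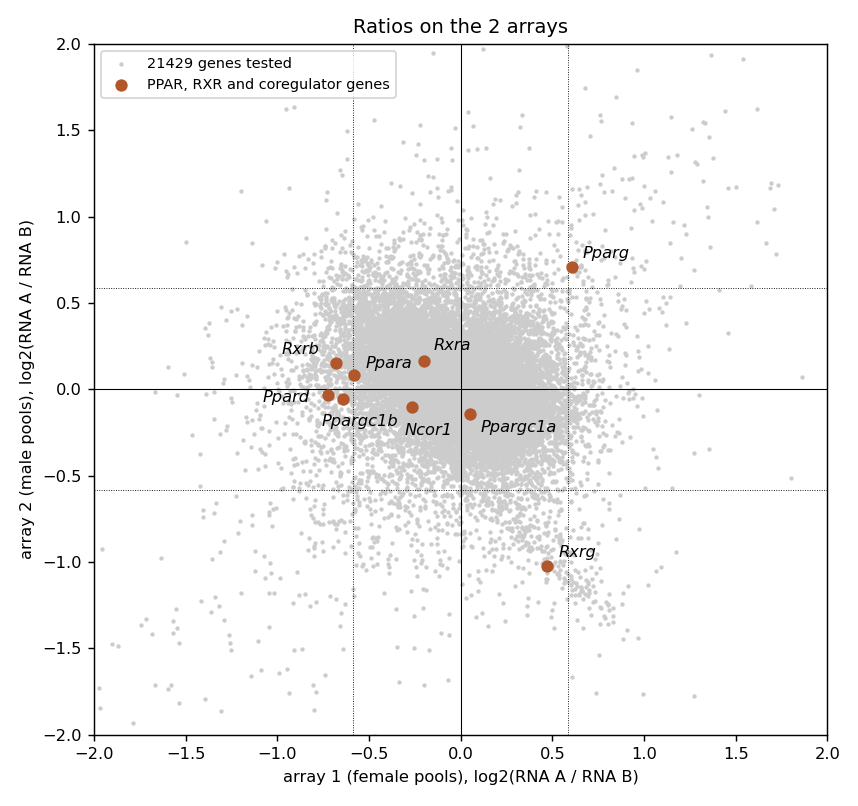
Log2 ratio of RNA A over RNA B on array 1 (female pools, x axis) against array 2 (male pools, y axis) for 21429 genes tested (grey) and the 9 genes (orange), with dotted lines at 1.5-fold; 36 genes lie outside the axes. Of the 9 genes, *Pparg* is alone past 1.5-fold on both arrays, at 0.60 and 0.71, while *Rxrg* lies at 0.47 and -1.02 and *Ppard*, *Rxrb* and *Ppargc1b* spread along the left of the x axis.

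*Ncor1*, the scaffold of the complex that recruits the histone deacetylase HDAC3, had mean log2 ratios between -0.19 and -0.10 over its probes. It was read by 4 probes on chromosome 11 (mm9, minus strand). The brightest (62134649 to 62134708) gave 1743 in RNA A against 2095 in RNA B on array 1, and 1940 against 2086 on array 2. RNA B was the brighter on both arrays, with overlap of the signal ranges on array 2. Within single spots of array 2, the log2 ratio ran from -0.18 to -0.045. The log2 ratios were -0.27 and -0.10, with a mean of -0.18 ± 0.11 (SD, n = 2 arrays) and a 95% interval from -0.64 to 0.27. The other 3 probes had ratios of -0.09 and -0.11, of 0.01 and -0.22, and of 0.03 and -0.41, the last from a dim probe with signals between 51.1 and 67.9. Their means were -0.10, -0.11 and -0.19, so the 4 means lay between -0.19 and -0.10 although the probes lie in different parts of the gene, from 62130192 to 62215132. The limma adjusted p was 1.

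The PGC-1 coactivators gave low signals. *Ppargc1a*, the inducer of mitochondrial biogenesis, was read by 2 probes on chromosome 5 (minus strand). The brighter (51848928 to 51848987) gave 288 in RNA A against 278 in RNA B on array 1, and 245 against 270 on array 2. The signal ranges of both RNAs overlapped on either array. Within single spots, the log2 ratio ran from 0.0087 to 0.084 on array 1 and from -0.18 to -0.094 on array 2. Its mean log2 ratio was -0.05 ± 0.14 (SD, n = 2 arrays), with a 95% interval from -0.50 to 0.41. The dimmer (51846926 to 51846985), with signals between 22.0 and 30.3, had ratios of 0.14 and -0.47. *Ppargc1b*, its close relative, was read by 1 probe that gave 33.4 in RNA A against 52.1 in RNA B on array 1, and 52.6 against 54.6 on array 2. The RNA A channel of array 1 was again the low value of the 4. Its log2 ratios were -0.64 and -0.05, with a mean of -0.35 ± 0.42 (SD, n = 2 arrays) and a 95% interval from -0.85 to 0.16. Both genes had a limma adjusted p of 1.

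Side by side, the 8 genes other than *Pparg* all had a mean log2 ratio below 0, that is brighter in RNA B, but 5 of them had ratios of opposite sign on the arrays. Of all genes tested, 48.1% had a mean below 0 and 61% had ratios of opposite sign. The median of the 9 genes was -0.27 on array 1 and -0.03 on array 2, against medians of -0.00038 and 0.03 over all genes tested. *Ppara*, *Rxra* and *Rxrb* were brighter with the green dye on both arrays, and *Rxrg* and *Ppargc1a* with the red dye. Among all genes tested, 6989 were brighter with green and 6082 with red on both arrays. The means of the 8 genes ran from -0.38 for *Ppard* to -0.02 for *Rxra*, and the 95% interval of each included 0. These intervals rest on a variance that limma moderates across all genes. They reach the size seen for *Pparg* in the direction of RNA B for 5 genes (*Ppara*, *Ppard*, *Rxrb*, *Rxrg* and *Ppargc1b*). They do so for no gene in the direction of RNA A, which does not exclude such a change where the arrays disagree. For *Rxrg* the SD over the arrays was 1.06, against a limma standard error of 0.32.

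**Figure D3:**
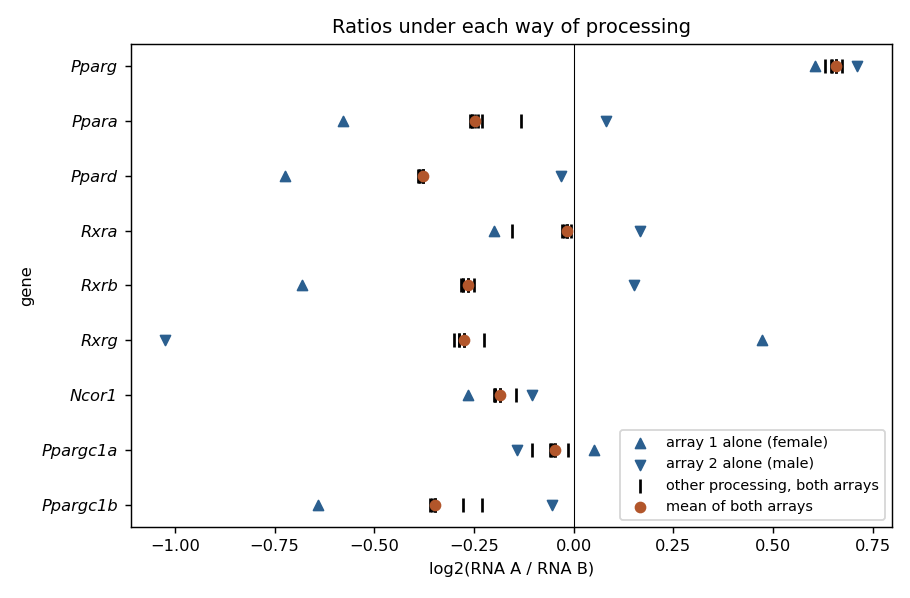
Log2 ratio of RNA A over RNA B of each of the 9 genes: mean of both arrays (orange), array 1 alone (upward triangle), array 2 alone (downward triangle) and the mean of both arrays under each other way of processing (black ticks). The triangles of *Pparg*, *Ppard*, *Ncor1* and *Ppargc1b* lie on 1 side of 0, and those of the other 5 genes lie on both sides.

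The wider machinery of the receptor was described with 5 lists of 49 genes, of which 46 were tested. Of these, 0 passed the filter in either direction and 0 were called by limma, with 3 (6.52%) at an unadjusted p under 0.05, against 3.78% of all genes tested. Their median mean log2 ratio was -0.05, against 0.01 over all genes tested. Of the 46 genes, 31 had ratios of opposite sign on the arrays, against 61% of all genes tested.

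The rest of the corepressor complex, with *Hdac3* and the TBL1 proteins among its genes, changed sign between the arrays in 6 of 6 genes. Of all genes tested, 61% changed sign. The median was 0.02, and *Hdac3*, the enzyme bound by NCOR1, had ratios of -0.04 and 0.13. Of 12 coactivator genes, 11 changed sign, and the median was -0.31 on array 1 and 0.14 on array 2. The exception was *Ep300*, a histone acetyltransferase, with ratios of -0.31 and -0.19. The 9 genes for other receptors that pair with RXR, such as the retinoic acid and thyroid hormone receptors, had medians of -0.14 and 0.22, and 8 changed sign. These lists had lower medians on array 1 than on array 2, as the 9 genes had.

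Genes of ligand supply and delivery had 7 of 8 members tested, with 4 brighter in RNA A on both arrays. *Fabp4*, a fatty acid carrier and a PPARG target of fat cells, had ratios of 0.43 and 0.17, and *Ptgs1*, a cyclooxygenase, had ratios of 0.03 and 0.45. The median of the list was 0.08, and the limma adjusted p of all 7 was 1. Known PPAR targets had 12 of 14 members tested, of which 2 were brighter in RNA A both times and 6 in RNA B, and a median of -0.09. The 3 genes of the lists with an unadjusted p under 0.05 were all among them. *Plin4*, a coat protein of lipid droplets, was very dim, with signals of 8.48 and 10.2 in RNA A and 14.7 and 23.9 in RNA B. Its mean log2 ratio was -1.01 ± 0.31 (SD, n = 2 arrays), with a limma adjusted p of 0.165. *Pdk4*, an inhibitor of pyruvate dehydrogenase, had ratios of -0.58 and -0.37. *Angptl4*, a secreted inhibitor of lipoprotein lipase and a target of all PPARs, had ratios of 0.07 and 0.03.

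**Figure D4:**
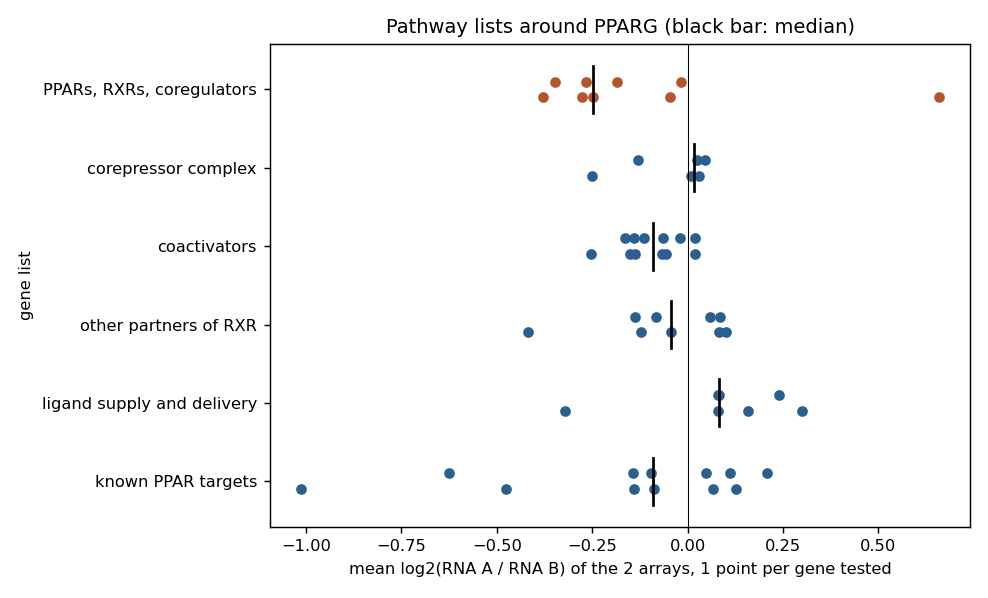
Mean log2 ratio of RNA A over RNA B of the 2 arrays (x axis) for each gene tested (1 point) in the 9 genes (orange) and in the 5 lists around them (blue), with the median of each list as a black bar. *Pparg*, at 0.66, lies to the right of every other point, and *Plin4*, a dim gene at -1.01, lies farthest to the left.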

How the data were processed

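RNA of pooled, sex-sorted E16.5 ureters was compared on 2 dual-colour arrays, and groups followed the labels. Per the labels and file headers, the deposited processed intensities came from Agilent Feature Extraction 10.7.3.1, which had background-subtracted and dye-normalised (linear and LOWESS). The deposited mean and background intensities served an alternative, as did the signed fold changes (a ratio) that the authors deposited under titles of Pparg-cKO against control. Per the file headers, a log10 ratio (red over green) was computed from these signals, and it served here as a check of the dyes. Spots flagged as outliers (2 of the spots of the 9 genes) were left out, and log2 signals were averaged per probe. Both arrays lay on 1 slide and 1 scan.

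Of several probes for a gene, the one brightest on average over all channels was used. The study's filter was read as 1.5-fold or more, alike in direction on the arrays, and a signal of 100. limma 3.58.1 in R 4.3.3 (lmFit with an intercept, eBayes, Benjamini-Hochberg at 0.05) was fitted to 21429 genes with at least 0.5 of kept spots well above background in 1 RNA on both arrays. It was also run on simulated data with changes larger than that of *Pparg*, which cannot show how well smaller changes are found. The other probes of the 9 genes have values only. Named are the 9 genes with each probe, list genes past the filter or called, defining markers and the 5 genes nearest to *Pparg*; other list genes were named after their values were seen. The genes and lists were chosen with earlier results of these data known. Plots were drawn with matplotlib. The number of arrays limits the precision. Some genes of the lists are counted but not reported here by name.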

Additional observations from a re-analysis of the deposited data

Results flagged for a closer look

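For 5 of the 9 genes the female pools (array 1) and the male pools (array 2) moved in opposite directions. The log2 ratio of array 1 minus that of array 2 was 1.496 for *Rxrg*, -0.83 for *Rxrb*, -0.66 for *Ppara*, -0.37 for *Rxra* and 0.19 for *Ppargc1a*. Each sex is 1 array with its own dye orientation, the difference was not tested, and sex and dye cannot be told apart. Of all genes tested, 61% had ratios of opposite sign.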

How the results depend on the processing

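The mean log2 ratio of *Pparg* stayed above 0 under all 7 alternatives that used both arrays, between 0.63 and 0.67, with limma adjusted p from 0.622 to 1, and lay between 0.60 and 0.71 with an array left out. The other 8 genes kept their direction in 56 of 56 values of these alternatives, with adjusted p of 1. With an array left out, the values ran from -0.58 to 0.082 for *Ppara*, -0.20 to 0.17 for *Rxra*, -0.68 to 0.15 for *Rxrb*, -1.02 to 0.47 for *Rxrg* and -0.14 to 0.052 for *Ppargc1a*. The filter counted 47 genes in the direction of RNA A and 69 in that of RNA B. These became 128 and 148 where the signal of 100 was replaced by the call of well above background, and, with an array left out, 301 to 321 and 488 to 637. limma called 27 and 40 genes, against 1 and 0 with normexp and loess, 9 and 24 with loess on the processed signals, 0 and 0 with the authors' table (262 and 305 at an unadjusted p under 0.05), and 0 and 0 with no filter on dim probes (220 and 274). The 0 in RNA B with normexp and loess stood beside 333 at an unadjusted p under 0.05. Fitting each probe on its own, chosen after seeing the data, gave 39 and 55. Why these counts moved was not tested. No further paired analysis was possible because each ratio is already taken within an array. The number of arrays limits all of these values, and single spots of the dim *Rxra* and *Ppargc1b* probes varied more on array 1 (SD of the log2 ratio 0.269 and 0.323) than those of *Pparg* (0.00427).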
